A study of Homo sapiens with 6 samples.

Results

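GDF15 (growth differentiation factor 15) and MIR3189, the microRNA gene inside it, were followed in SH-SY5Y cells, a human neuroblastoma line with features of sympathetic neurons, treated with either of 2 inhibitors of protein disulfide isomerase. All probe sets that the platform annotation names GDF15 or MIR3189 were taken, which gave 1 probe set for each gene, 2 genes among 14884 named genes. Both were chosen by their measured difference from mock on these same arrays, so their levels and differences are given as a description without a test. The groups were securinine at 30 µM, 16F16 at 4 µM and mock treatment with the solvent methanol, each for 24 h and each with 2 arrays (Affymetrix Human Gene 2.0 ST). All cells were grown in the same serum-containing medium, per the labels' protocols. The arrays of a group are called biological replicates there, with no word on how the cultures were separated, so the errors and p-values below measure the spread between these samples. The compounds' doses differed, and their values are set side by side without a test between them.

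GDF15 is a distant member of the transforming growth factor beta (TGF-beta) family. It is made as a proprotein, cut by furin-like convertases and secreted as a dimer. Its receptor is GFRAL, which signals through the receptor tyrosine kinase RET and sits mainly on hindbrain neurons, where GDF15 lowers food intake. Many cell types raise GDF15 under stress, through the transcription factors ATF4 and DDIT3 of the integrated stress response, through p53 and through EGR1. A microRNA in an intron is usually cut out of the host gene's primary transcript, first by DROSHA with DGCR8 in the nucleus and then by DICER1.

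The sequences of the microRNA show what the smaller probe set is named for. The hairpin of MIR3189 lies at chr19:18386562-18386634 on the plus strand (RefSeq, GRCh38.p14) and begins at base 405 of GDF15, counting the start of the gene as base 1. In the hairpin the 2 mature arms are in capitals, and in each mature arm the seed (bases 2 to 8), which pairs with target messages, is in capitals.
MIR3189 hairpin: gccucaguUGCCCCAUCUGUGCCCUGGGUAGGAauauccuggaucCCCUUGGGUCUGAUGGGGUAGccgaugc
hsa-miR-3189-5p: uGCCCCAUcugugcccuggguagga
hsa-miR-3189-3p: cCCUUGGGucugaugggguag
The 5p arm lies at chr19:18386570-18386594 and the 3p arm at chr19:18386607-18386627. Among 2545 mature entries of the RefSeq table, 0 from another gene had the seed of the 5p arm and 0 had that of the 3p arm, so neither arm could be grouped with a measured relative. The array reads labelled cDNA made from total RNA, and whether the MIR3189 probe set reads the mature arms, the hairpin or the unspliced GDF15 transcript cannot be told apart here.

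An intronic microRNA is usually transcribed from the start of its host, so the 250 bases before it are shown, at chr19:18385908-18386157 on the plus strand (RefSeq, GRCh38.p14). Capitals mark a TATA box and both GC boxes, the motifs of those searched that occur there.
GDF15 promoter: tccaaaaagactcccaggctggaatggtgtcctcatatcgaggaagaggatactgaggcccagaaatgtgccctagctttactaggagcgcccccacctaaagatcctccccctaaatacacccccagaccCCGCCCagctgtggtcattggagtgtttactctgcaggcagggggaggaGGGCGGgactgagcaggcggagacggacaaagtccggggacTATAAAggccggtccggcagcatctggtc
The TATA box (TATAAA) lies 29 to 24 bases before the start and occurs on either strand in 10.7% of 35116 promoter windows of the same length. The GC box (GGGCGG), the kind of site that SP1 binds, occurs on the minus strand 119 to 114 bases before the start and on the plus strand 70 to 65 bases before it, and 42.6% of windows hold at least 1. Both strands were also searched for an AP-1 site (TGANTCA, in 6.57% of windows), a cAMP response element (TGACGTCA, 1.65%) and the composite site of C/EBP and ATF factors (TGATGNAA, 3.14%). Further searches were for the E-box of MiT/TFE factors (CACGTG, 6.34%), the antioxidant response element core (TGACNNNGC, 10.9%), an EGR1 site (GCGNGGGCG, 8.41%) and the p53 half-site consensus (5.57%). None of these 7 motifs was found in the GDF15 window. That says only that those letters are not in these 250 bases.

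GDF15 was higher on every treated array than on either mock array, and highest with securinine. Its log2 level was 11.38 and 11.44 on the securinine arrays, 9.39 and 9.78 on the 16F16 arrays, and 7.52 and 7.47 on the mock arrays. The 3 groups did not overlap, and the arrays of a group lay 0.06 (securinine), 0.38 (16F16) and 0.05 (mock) apart on the log2 scale. The group means were 11.41 ± 0.040 with securinine, 9.58 ± 0.27 with 16F16 and 7.49 ± 0.032 with mock (SD, n = 2 arrays each). The difference from mock was 3.92 ± 0.14 with securinine, or 15.1-fold, and 2.09 ± 0.14 with 16F16, or 4.26-fold (SE of the fit). The widest gap, between the 16F16 arrays, is small beside those differences. Without 16F16 replicate 1 the 16F16 difference was 2.28, and without 16F16 replicate 2 it was 1.90. GDF15 lay at the 99.1 percentile of all 53617 probe sets on both securinine arrays, at the 95.7 and 96.8 percentiles on the 16F16 arrays, and at the 86.0 and 85.7 percentiles on the mock arrays. It was thus among the brighter probe sets in mock cells already. RMA, the processing named by the submitters, sets the arrays to one scale, so a change common to most genes would not be seen. In RNA from a whole culture, more cells with GDF15 and more GDF15 RNA per cell cannot be told apart.

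MIR3189 showed the same order of groups at a lower level. Its log2 level was 6.30 and 6.51 on the securinine arrays, 5.04 and 4.95 on the 16F16 arrays, and 4.01 and 3.69 on the mock arrays. Again the groups did not overlap. Means were 6.40 ± 0.15 with securinine, 5.00 ± 0.067 with 16F16 and 3.85 ± 0.23 with mock (SD, n = 2 arrays each). The difference from mock was 2.55 ± 0.14 with securinine (5.87-fold) and 1.15 ± 0.14 with 16F16 (2.21-fold). On the log2 scale that was 0.65 of the GDF15 difference with securinine and 0.55 of it with 16F16. Probe sets answer to RNA amount with different steepness, so this share does not show that the 2 RNAs changed by different amounts. In mock cells MIR3189 lay at the 46.9 and 41.0 percentiles of all probe sets, and without detection calls a low level there cannot be told from background. It was at the 76.4 and 78.2 percentiles on the securinine arrays and at the 63.3 and 61.4 percentiles on the 16F16 arrays. The mock arrays were 0.33 apart, the widest gap for this gene, and the securinine difference was 2.72 without mock replicate 1 and 2.39 without mock replicate 2.

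**Figure D1:**
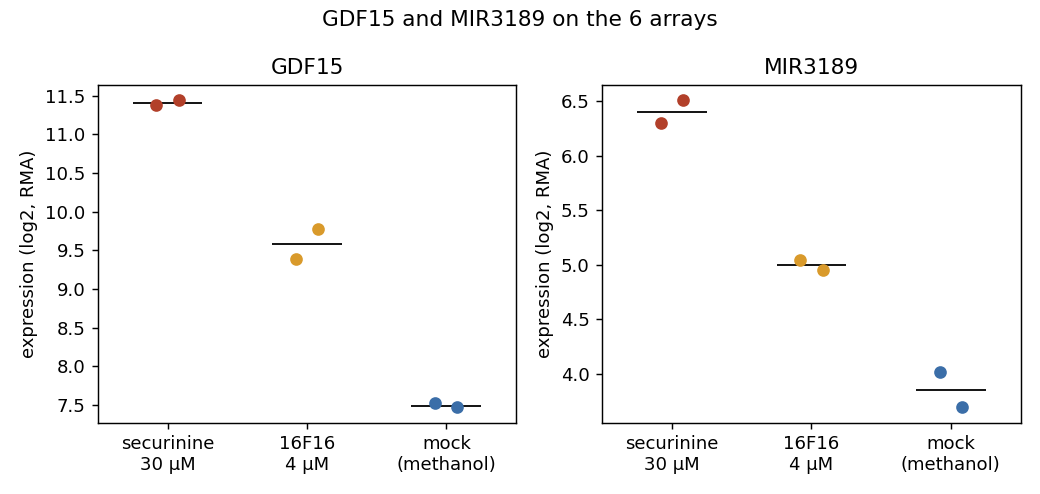
Log2 expression (RMA) of GDF15 (left) and MIR3189 (right) on each of the 6 arrays, with dots for arrays and a line for the mean of 2. In both panels the groups are stepped without overlap, securinine highest (11.38 and 11.44 for GDF15), 16F16 between, and mock lowest (7.52 and 7.47 for GDF15). The 2 vertical scales differ and do not start at 0.

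Within the 16F16 group the 2 genes did not order the arrays alike. GDF15 was lower on replicate 1 (9.39) than on replicate 2 (9.78), and MIR3189 was slightly higher on replicate 1 (5.04) than on replicate 2 (4.95). The level with securinine exceeded that with 16F16 by 1.83 (3.55-fold) for GDF15 and by 1.41 (2.66-fold) for MIR3189. The 16F16 difference was 0.53 of the securinine difference for GDF15 and 0.45 of it for MIR3189.

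Among all 14884 genes GDF15 had the largest positive difference from mock with either compound. FAT1, a large cadherin, came next with securinine, at 10.72 and 10.93 on the securinine arrays against 7.87 and 7.86 on the mock arrays, and MIR3189 was ranked 3. With 16F16 MIR3189 was ranked 15, and the gene after GDF15 was another microRNA gene, MIR548AL, at 5.74 and 6.04 on the 16F16 arrays against 3.89 and 3.95 on the mock arrays. Among 1072 microRNA genes MIR3189 had the largest difference with securinine and was ranked 7 with 16F16. By its level it was ranked 65 of those microRNA genes with securinine and 404 with mock, though levels of different probe sets compare only roughly.

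**Figure D2:**
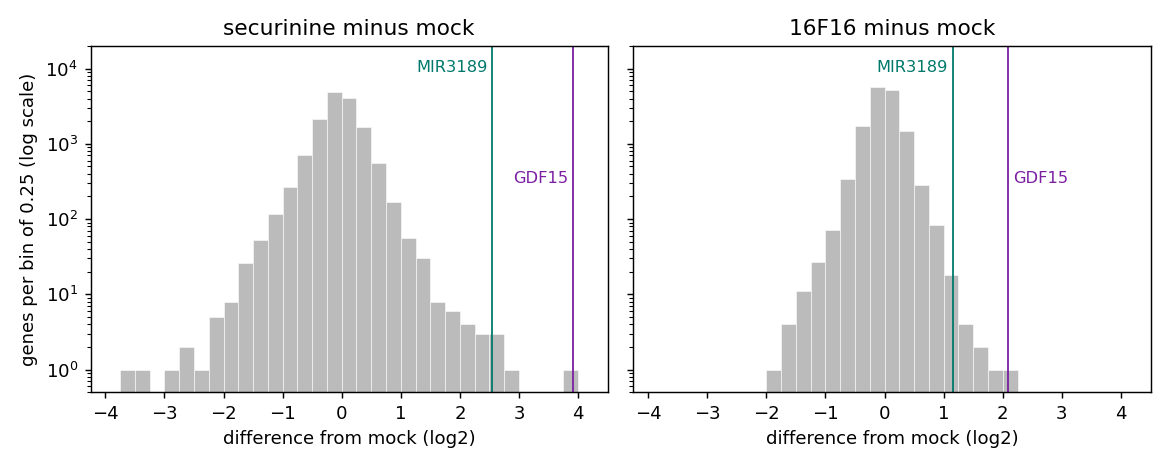
Number of genes (log scale) by log2 difference from mock, in bins of 0.25, for securinine (left) and 16F16 (right), over 14884 genes, with lines at GDF15 and MIR3189. GDF15 stands at the right edge in both panels, at 3.92 and 2.09, and MIR3189 at 2.55 and 1.15. Both panels use the same mock arrays.

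Other microRNA genes that lie within genes were compared with their hosts in the same way. Of 884 measured microRNA genes with a RefSeq position, 267 lay inside another measured gene on the same strand, among them MIR3189 in GDF15. For the other 266 pairs, with 235 host genes, 83 hosts counted once per pair passed the test with securinine (limma, Benjamini-Hochberg adjusted p under 0.05 over all genes), 33 higher and 50 lower. Of all genes, 8.40% passed as higher and 10.6% as lower in that comparison. Where the host rose, the microRNA difference was above 0 in 19 of 33 pairs, with a median of 0.10 against a median host difference of 0.44. Where the host fell, the microRNA difference was below 0 in 26 of 50 pairs, with a median of -0.02 against -0.67 for the hosts. Some of these microRNA probe sets, such as MIR620, MIR627 and MIR569, lay within the dimmest 25% on all 6 arrays. These counts and medians therefore cannot tell a microRNA that did not follow its host from a probe set at background. The microRNA also passed as higher in 6 of the 33 pairs whose host rose, and as lower in 1 of the 50 whose host fell, 7 of the 83 in all. Of all 1072 microRNA genes, 45 passed as higher and 22 (2.05%) as lower with securinine. Leaving out 1 mock or securinine array lowered the 83 to 29 (without mock replicate 1), 26 (mock replicate 2), 33 (securinine replicate 1) and 34 (securinine replicate 2), and the 7 to 2 without mock replicate 1 and to 0 in the other three cases.

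The 5 hosts that differed most with securinine were GDF15 with MIR3189, NHS with MIR4768, DDIT3 with MIR616, DOCK10 with MIR4439, and AEN, which holds both MIR1179 and MIR7-2. DDIT3, a transcription factor of the integrated stress response, was at 6.06 and 6.16 on the securinine arrays, 5.13 and 5.15 on the 16F16 arrays, and 4.30 and 4.57 on the mock arrays. MIR616 was at 4.69 and 4.85 on the securinine arrays, 3.34 and 3.91 on the 16F16 arrays, and 3.42 and 2.23 on the mock arrays. It rose with securinine by 1.95 ± 0.40 (limma adjusted p = 0.025), beside a host difference of 1.67 ± 0.11 (adjusted p = 0.0023). The MIR616 call ended without mock replicate 2, securinine replicate 1 or securinine replicate 2, and its mock arrays were far apart. With 16F16 MIR616 overlapped mock, at a difference of 0.80. NHS fell by 1.84 ± 0.11 with securinine (adjusted p = 0.0018), and MIR4768 was at -0.46 (adjusted p = 0.28). DOCK10 fell by 1.31 (adjusted p = 0.0031) and MIR4439 was at 0.07 (adjusted p = 0.81). AEN, a p53-induced exonuclease, rose by 1.28 ± 0.075 (adjusted p = 0.0018), and its microRNAs MIR1179 and MIR7-2 were at 0.02 (adjusted p = 0.97) and 0.22 (adjusted p = 0.40). MIR1179, MIR7-2 and MIR4439 lay within the dimmest 25% of probe sets on the securinine and mock arrays. Without detection calls such levels cannot be told from background, so these probe sets may be unable to show a change. A large microRNA difference also occurred without a large host difference, as for MIR644A (2.42) in ITCH (0.48), a pair named after its values were seen.

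**Figure D3:**
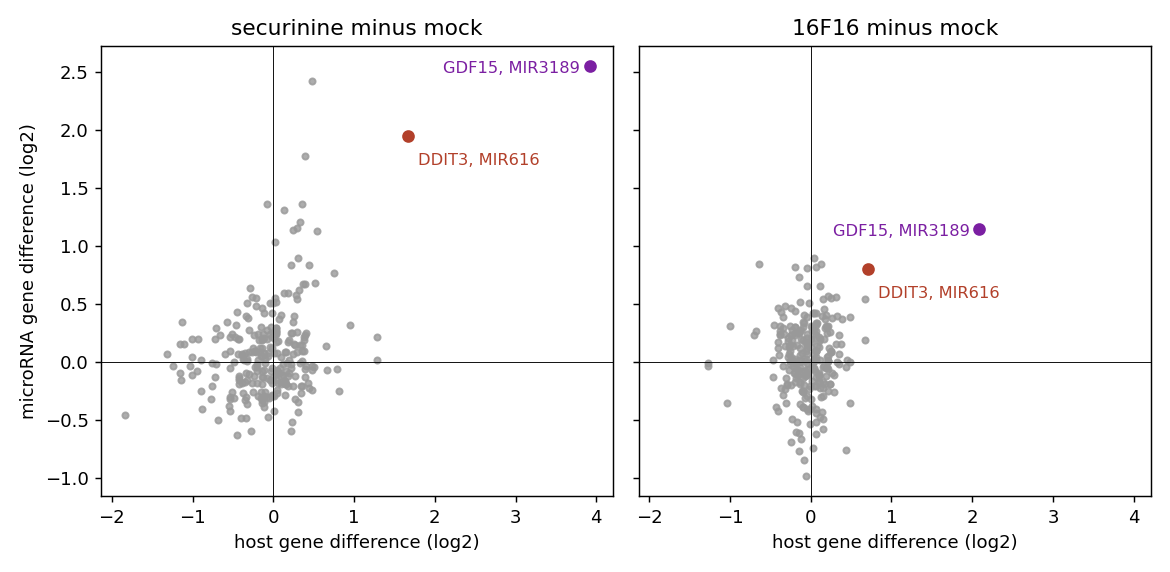
Log2 difference from mock of microRNA genes (vertical) against that of the gene they lie in (horizontal), 267 pairs, for securinine (left) and 16F16 (right). GDF15 with MIR3189 is the point farthest right and DDIT3 with MIR616 the next marked one. The other host differences lie between -1.84 and 1.67 with securinine and between -1.27 and 0.71 with 16F16. Pairs of 1 host share its value.

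The measured neighbours of GDF15 on chromosome 19 differed far less from mock. Before GDF15, 8 genes of the RefSeq table lay between it and the nearest measured one, MIR3188, so the closest genes on that side were not examined. Of the 5 nearest measured genes on either side, JUND, an AP-1 subunit, rose by 0.40 with securinine (limma adjusted p = 0.024), SSBP4 fell by 0.87 (adjusted p = 0.0069) and ISYNA1, the enzyme that makes inositol phosphate from glucose phosphate, fell by 0.47 (adjusted p = 0.029). SSBP4 was at 7.16 and 7.20 on the securinine arrays, 7.91 and 7.77 on the 16F16 arrays, and 7.94 and 8.16 on the mock arrays. The SSBP4 call ended without securinine replicate 1, and those of JUND and ISYNA1 without any 1 mock or securinine array. The other 7 (MPV17L2, CIST1, IQCN, MIR3188, LRRC25, ELL and KXD1) lay between -0.08 and 0.35 without passing. The 3 of 10 called with securinine stand beside 19.0% of all genes. With 16F16 0 of the 10 passed in limma (2 with an unadjusted p below 0.05), beside 1.50% of all genes that passed in either direction, and their differences ran from -0.35 (ISYNA1) to 0.31 (KXD1).

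The receptor that answers to GDF15 was dim in these cells. GFRAL was at 2.64 and 2.84 on the securinine arrays, 2.75 and 2.79 on the 16F16 arrays, and 2.58 and 2.64 on the mock arrays, within the dimmest 25% of probe sets on 5 of the 6 arrays. Its coreceptor RET fell with both compounds. RET was at 6.93 and 6.85 on the securinine arrays, 7.18 and 6.87 on the 16F16 arrays, and 8.19 and 8.18 on the mock arrays. The fall was 1.30 ± 0.12 with securinine (limma adjusted p = 0.0041) and 1.17 ± 0.12 with 16F16 (adjusted p = 0.028), so GDF15 and RET differed from mock in opposite directions. The 16F16 call of RET, like all calls with 16F16 below, ended without any 1 of the 6 arrays. GFRA3, the coreceptor for artemin, fell by 1.05 ± 0.10 with securinine (adjusted p = 0.0043) and was at -0.42 ± 0.10 with 16F16 (adjusted p = 0.10). The other measured genes of the list did not pass with either compound. They were the GDNF family receptors GFRA1, GFRA2 and GFRA4, the ligands NRTN, ARTN and PSPN, the adhesion molecule NCAM1, which also binds GDNF, and MMP14, a membrane protease reported to cleave GFRAL. In all, 2 of 11 fell and 0 rose with securinine, where 10.6% of all genes passed as lower and 8.40% as higher, and 1 fell and 0 rose with 16F16, where 0.779% of all genes passed as lower and 0.719% as higher.

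Of 5 measured enzymes that could process the proprotein, 1 rose and 0 fell with securinine, beside 8.40% and 10.6% of all genes. With 16F16 0 passed in limma (0 with an unadjusted p below 0.05), beside 1.50% of all genes. FURIN was the enzyme that rose. It was at 7.26 and 7.20 on the securinine arrays, 6.81 and 6.65 on the 16F16 arrays, and 6.55 and 6.50 on the mock arrays. The rise with securinine was 0.70 ± 0.090 (limma adjusted p = 0.0076), and with 16F16 the difference was 0.20 ± 0.090 (adjusted p = 0.28). The call with securinine ended without mock replicate 1, mock replicate 2 or securinine replicate 1. PCSK7 was at 0.29 with securinine and 0.19 with 16F16, PCSK4 at 0.13 and 0.18, PCSK5 at 0.08 and 0.14, and PCSK6 at -0.22 and -0.18, none passing.

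Of 9 measured transcription factors known to act on GDF15, 6 rose with securinine and 2 with 16F16, and 0 fell. The list was chosen with earlier results of these data known, so its counts are a description. Of all genes 8.40% rose with securinine and 0.719% with 16F16. EGR1, an immediate-early zinc finger factor, was at 9.01 and 8.82 on the securinine arrays, 7.53 and 7.51 on the 16F16 arrays, and 6.61 and 6.54 on the mock arrays. It rose by 2.34 ± 0.094 with securinine (limma adjusted p = 0.0011) and by 0.95 ± 0.094 with 16F16 (adjusted p = 0.027). TFE3, a lysosome-linked factor of the MiT/TFE family, was at 8.76 and 8.71 on the securinine arrays, 8.0 on both 16F16 arrays, and 7.37 and 7.35 on the mock arrays. Its rise was 1.37 ± 0.075 with securinine (adjusted p = 0.0018) and 0.64 ± 0.075 with 16F16 (adjusted p = 0.033). Both genes, like GDF15, were stepped from securinine through 16F16 to mock.

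DDIT3 rose by 1.67 ± 0.11 with securinine and was at 0.71 ± 0.11 with 16F16 (limma adjusted p = 0.053), with both 16F16 arrays above both mock arrays. ATF4, its activator, was at 8.42 and 8.43 on the securinine arrays, 7.58 and 7.66 on the 16F16 arrays, and 7.77 and 7.78 on the mock arrays. It rose by 0.65 ± 0.077 with securinine (adjusted p = 0.0063) and was at -0.16 ± 0.077 with 16F16 (adjusted p = 0.31), both 16F16 arrays lying below mock. NFE2L2, the oxidant-response factor, rose by 0.56 ± 0.093 with securinine (adjusted p = 0.014) and was at 0.05 with 16F16. ATF3, a stress-induced partner of ATF4, rose by 0.54 ± 0.13 (adjusted p = 0.040) and was at 0.03 with 16F16. The calls of NFE2L2 and ATF3 each ended without any 1 mock or securinine array. SP1 was at 0.25 ± 0.078 with securinine and 0.44 ± 0.078 with 16F16, XBP1 at 0.17 and -0.01, and TFEB at -0.17 and 0.37, none passing. The median difference of the list was 0.56 with securinine and 0.37 with 16F16, beside -0.035 and -0.012 over all genes.

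The p53 targets that passed all rose. Of 14 measured genes 11 rose with securinine and 7 with 16F16, and 0 fell, beside 8.40% and 0.719% of all genes that rose. The median difference was 1.21 with securinine and 0.63 with 16F16, beside -0.035 and -0.012 over all genes. EDA2R, a TNF receptor family member, was at 10.14 and 10.08 on the securinine arrays, 9.41 and 9.55 on the 16F16 arrays, and 8.33 and 8.21 on the mock arrays. PLK2, a stress-induced kinase, was at 6.36 and 6.29 on the securinine arrays, 4.86 and 5.08 on the 16F16 arrays, and 3.66 and 3.98 on the mock arrays. Both were without overlap between groups. Differences with securinine ran from 0.91 (RRM2B) to 2.51 (PLK2) among the genes that rose, and those that rose with 16F16 ran from 0.59 (TP53INP1) to 1.22 (EDA2R). CCNG1 (0.25), BBC3 (0.21) and TP53I3 (0.14) did not pass with securinine. This list was drawn up with some of these rises known, so its counts are a description.

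Integrated stress response genes went both ways. Of 21 measured kinases and targets, 2 rose and 8 fell with securinine, beside 8.40% and 10.6% of all genes, and 1 rose and 2 fell with 16F16, beside 0.719% and 0.779%. The medians were -0.18 with securinine and -0.13 with 16F16. The securinine calls of ASNS, CBS and STC2, which fell, and of the kinase EIF2AK2, which rose, each ended without any 1 mock or securinine array. That of EIF2AK2 also ended without either 16F16 array. SESN2, a stress-induced inhibitor of mTORC1 signalling that is also a p53 target, was at 8.48 and 8.33 on the securinine arrays, 7.56 and 7.77 on the 16F16 arrays, and 6.83 and 6.93 on the mock arrays. It rose by 1.52 ± 0.11 with securinine (limma adjusted p = 0.0025) and by 0.78 ± 0.11 with 16F16 (adjusted p = 0.042). The serine synthesis genes PHGDH and PSAT1 fell with securinine, by 1.18 ± 0.12 (adjusted p = 0.0046) and 1.11 ± 0.079 (adjusted p = 0.0025). PSAT1 also fell with 16F16, by 0.59 ± 0.079 (adjusted p = 0.039). PSPH, of the same list, was at -0.22 ± 0.080 with securinine without passing (adjusted p = 0.12). The folate enzyme SHMT2 fell by 0.83 ± 0.091 (adjusted p = 0.0052) and CTH, of cysteine synthesis, by 0.76 ± 0.084 (adjusted p = 0.0055). VLDLR, a lipoprotein receptor, fell by 0.88 ± 0.079 with securinine and by 0.65 ± 0.079 with 16F16 (adjusted p = 0.035). ATF4 and DDIT3 RNA were thus higher with securinine while several amino acid synthesis targets of ATF4 were lower.

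**Figure D4:**
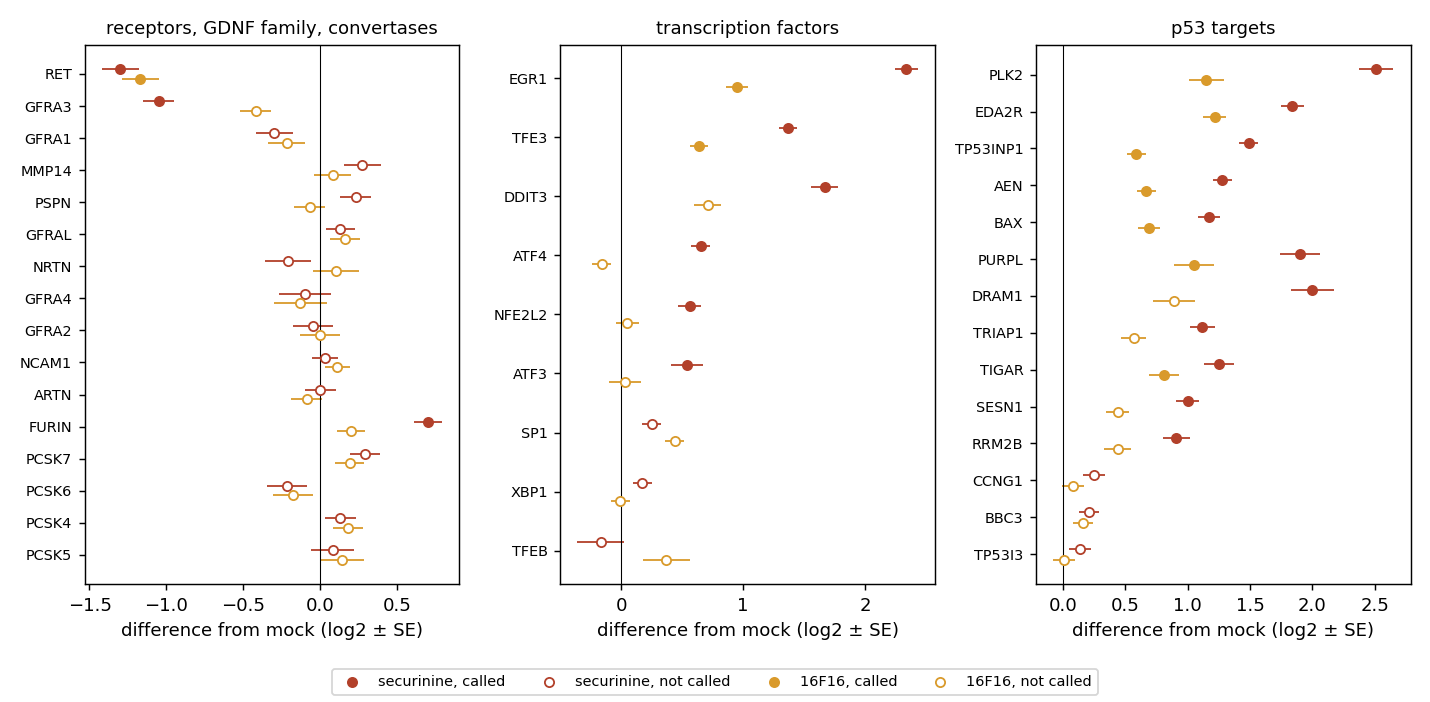
Log2 difference from mock with its SE for the receptor, GDNF family and convertase genes (left), the transcription factors (middle) and the p53 targets (right), securinine above 16F16 for each gene, filled where limma's adjusted p was under 0.05. RET lies left of 0 with both compounds, and EGR1, TFE3, PLK2 and EDA2R lie right of 0 with both. Both compounds are set against the same mock arrays.

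Few relatives of GDF15 passed, at a share near that of all genes. Of 24 measured TGF-beta family ligands, 1 rose and 2 fell with securinine and 0 passed with 16F16 in limma (3 with an unadjusted p below 0.05), where 19.0% and 1.50% of all genes passed in either direction. NODAL, a ligand of early embryonic patterning, rose by 0.70 ± 0.15 (adjusted p = 0.029), BMP8B fell by 0.59 ± 0.12 (adjusted p = 0.028) and BMP7 fell by 0.45 ± 0.079 (adjusted p = 0.016). NODAL was at 5.55 and 5.35 on the securinine arrays, 5.14 and 5.04 on the 16F16 arrays, and 4.94 and 4.57 on the mock arrays, far below the step of GDF15. The NODAL call ended without mock replicate 2 or either securinine array, the BMP8B call without either mock array or securinine replicate 1, and the BMP7 call without any 1 of those 4 arrays. Among 10 receptors and SMADs, the messengers of the family, SMAD5 rose by 0.41 ± 0.088 (adjusted p = 0.029) and SMAD3 fell by 0.82 ± 0.11 (adjusted p = 0.0089) with securinine, calls that ended without either mock array, and that of SMAD5 also without either securinine array. The coreceptor ENG rose by 0.63 ± 0.079 with 16F16 (adjusted p = 0.036) and was at 0.03 with securinine. Its 16F16 call ended without any 1 of the 6 arrays.

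Of 15 measured other secreted stress factors, 1 rose and 1 fell with securinine, and 1 rose and 0 fell with 16F16. These counts stand beside 8.40% of all genes higher and 10.6% lower with securinine, and 0.719% higher with 16F16. VGF, a neuropeptide precursor of neurons and endocrine cells, was at 10.40 and 10.39 on the securinine arrays, 9.50 and 9.54 on the 16F16 arrays, and 8.61 and 8.64 on the mock arrays. It rose by 1.77 ± 0.074 with securinine (limma adjusted p = 0.0011) and by 0.89 ± 0.074 with 16F16 (adjusted p = 0.026). FGF21, the other hormone often raised with GDF15 under mitochondrial stress, was at 0.06 ± 0.11 with securinine and 0.22 ± 0.11 with 16F16 (adjusted p = 0.75 and 0.33). STC2, a stanniocalcin, fell by 0.60 ± 0.12 with securinine (adjusted p = 0.026), a call that ended without any 1 mock or securinine array. CCL2 was at 0.95 ± 0.31 and LIF at 0.54 ± 0.16 without passing.

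Of 8 measured genes of microRNA processing and silencing, 4 rose with securinine, 0 fell, and 0 passed with 16F16 in limma (1 with an unadjusted p below 0.05). Of all genes 8.40% rose with securinine and 0.719% with 16F16. DGCR8, the RNA-binding partner of DROSHA, was at 7.39 and 7.33 on the securinine arrays, 6.78 and 6.36 on the 16F16 arrays, and 6.50 and 6.55 on the mock arrays. It rose by 0.84 ± 0.15 with securinine (adjusted p = 0.016). The silencing scaffolds TNRC6A, TNRC6C and TNRC6B rose by 0.57 ± 0.095, 0.52 ± 0.079 and 0.38 ± 0.088. These calls ended without either mock array or securinine replicate 1, those of DGCR8, TNRC6B and TNRC6C also without securinine replicate 2, and that of TNRC6B without either 16F16 array as well. XPO5, which exports hairpins from the nucleus, was at -0.26 ± 0.074 (adjusted p = 0.064). DDX17, DDX5 and TARBP2 did not pass either, and DROSHA and DICER1 were not among the 8 genes.

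Taking all 9 pathway lists, 115 of 178 genes were measured, and 40 (34.8%) passed with securinine, 27 higher and 13 lower, where 19.0% of all genes passed. With 16F16, 15 (13.0%) passed, 12 higher and 3 lower, where 1.50% of all genes passed. Of these calls, 11 with securinine and 7 with 16F16 came from the p53 list, drawn up with some of its rises known. The other lists too were chosen with earlier results of these data known, so the pooled shares and the counts per list are a description. Every one of those 15 calls, and all 223 calls over all genes with 16F16, ended when any 1 of the 6 arrays was left out, and 0 genes then passed in limma (2099 to 2904 with an unadjusted p below 0.05). With securinine 24 of the 40 calls were kept whichever 1 array was left out, among them RET, GFRA3, EGR1, TFE3, DDIT3, ATF4, SESN2, VGF and the 11 p53 targets. The median difference of the 115 genes was 0.08 with securinine and 0.01 with 16F16.

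The genes most like GDF15 were found by the Pearson correlation of log2 values over the 6 arrays, among 322 genes whose group means spanned at least 1. The arrays fall into 3 treatment groups, so a high value says mainly that the group means are spaced alike. Clusterin (CLU), an extracellular chaperone, came first at 0.9987, then AEN (0.9984), the stress kinase PLK3 (0.9980), the EGR corepressor NAB2 (0.9979) and VGF (0.9977). CLU was at 6.94 and 6.90 on the securinine arrays, 5.95 and 6.17 on the 16F16 arrays, and 5.22 and 5.17 on the mock arrays. ABHD4, the protease inhibitor TFPI2, the p53-induced ribosomal protein paralog RPS27L, KCTD12 and ANKRD52 followed, down to 0.9953. Their differences with securinine ran from 1.09 (PLK3) to 2.00 (TFPI2), all smaller than that of GDF15. The 16F16 difference was 0.50 to 0.60 of the securinine difference in these 10 genes, beside 0.53 in GDF15. That nearness follows from choosing them by correlation and is no further likeness.

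The most opposite genes were the histamine receptor HRH3 (-0.9998), PSAT1 (-0.9986), GXYLT2 (-0.9984), THNSL1 (-0.9961) and the dopamine-forming decarboxylase DDC (-0.9961). HRH3 was at 5.32 and 5.26 on the securinine arrays, 6.26 and 6.11 on the 16F16 arrays, and 7.22 and 7.21 on the mock arrays. It mirrored GDF15 down to the order of the arrays within each treated group. MIR3189 correlated with GDF15 at 0.9862 over the 6 arrays, which put it at rank 104 of 14883 genes.

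**Figure D5:**
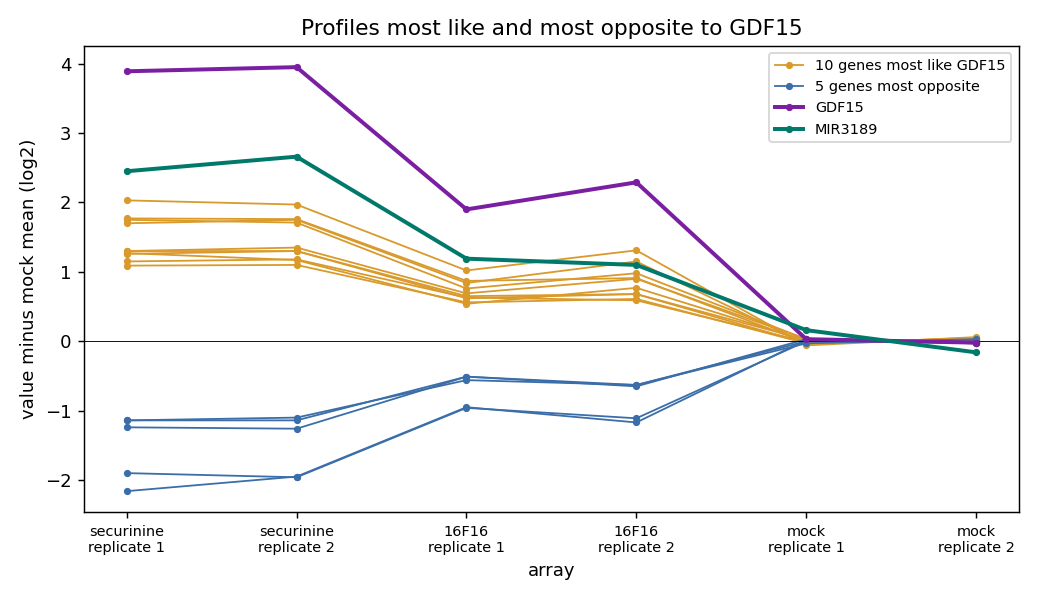
Log2 value minus the mock mean on each of the 6 arrays for GDF15, MIR3189, the 10 genes most like GDF15 and the 5 most opposite. GDF15 averages 3.92 with securinine, 2.09 with 16F16 and 0 with mock. The 10 like genes, chosen by correlation, step in about the same proportion at a smaller size. Lines join arrays to show each gene and stand for no order in time.

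For MIR3189 the most alike of 14883 genes were CREB3, a membrane-bound transcription factor (0.9985), the chondroitin synthase CHSY1 (0.9983) and the transcription kinase CDK13 (0.9968). FRMD8, the splicing cofactor SON, PRRC2B, SERTAD1, the acetyltransferase EP300, CHPF2 and TMEM131 followed, down to 0.9949. Most of these moved far less, with securinine differences from 0.25 (CHSY1) to 1.22 (SERTAD1) beside 2.55 for MIR3189. The most opposite were TSPAN2 (-0.9979), HSPA12A, IFT70B, the collagen cross-linking enzyme LOX and NME4, with differences from -1.79 (TSPAN2) to -0.45 (NME4). GDF15 itself stood at rank 68.

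Array medians, correlations between arrays and cell markers were examined on the same arrays. Median log2 values per array lay between 4.16 and 4.23, and arrays of a group correlated at 0.986 to 0.990 across probe sets, arrays of different groups at 0.979 to 0.986. The 16F16 arrays correlated at 0.986 with each other, no higher than 16F16 replicate 2 with either mock array (0.986). Of 10 measured markers of noradrenergic neuroblastoma, HAND2 was at 11.25 and 11.17 on the securinine arrays, 11.25 and 11.19 on the 16F16 arrays, and 11.30 and 11.21 on the mock arrays. DBH, which makes noradrenaline, was at 11.79 and 11.97 on the securinine arrays, 12.38 and 12.35 on the 16F16 arrays, and 12.50 and 12.45 on the mock arrays. TH, the dimmest of the 10 with mock, was at 5.26 and 5.61 on the mock arrays and did not pass with either compound. The mean level of the list was 8.96 to 9.06 with securinine, 9.31 to 9.34 with 16F16 and 9.73 to 9.74 with mock. CHGA, DDC, GATA2, CHGB and DBH fell with securinine and CHGA, DDC and CHGB with 16F16, where 10.6% and 0.779% of all genes passed as lower. The CHGB and DBH calls with securinine ended without either mock array or securinine replicate 1. These markers moved with treatment beside GDF15, and their part in its level was not tested. The 6 measured markers of epithelial, blood and endothelial cells had a mean level of 4.64 to 4.69 with securinine, 4.59 to 4.81 with 16F16 and 4.68 to 4.74 with mock. KRT18, the brightest of these, was at 6.82 and 6.75 on the mock arrays, above TH, though levels of different probe sets compare only roughly. CD14 rose by 0.57 ± 0.14 with securinine (limma adjusted p = 0.038), a call that ended without any 1 mock or securinine array.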

How the data were processed

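The deposited values are log2 expression of 53617 probe sets on each of 6 arrays, with RMA and limma named in the submitters' processing notes and no version or setting. The genome build of the array is not given in the sources used here. Probe sets were named through the platform annotation and RefSeq (GRCh38.p14) by Entrez identifier. Of 16098 named probe sets, the brightest per gene was taken, which left 14884 genes. limma (version 3.58.1, R 4.3.3) was fitted to the 6 arrays together on group alone (3 residual degrees of freedom), two-sided p-values were adjusted by Benjamini-Hochberg over all genes, with a call at an adjusted p under 0.05. Errors of differences are SEs of the fit, with a median of 0.11, and the number of arrays limits precision. The genes and lists were chosen with earlier results of these data known. Named are all measured receptor, convertase and transcription factor genes, genes of lowest adjusted p in other lists, the 10 most and 5 least correlated genes, neighbours and host pairs. Same-numbered arrays did not deviate together (correlations of -0.032, 0.038 and -0.050), so numbers were not treated as pairs. Alternatives were centring, quantile normalization, all probe sets, mean probe sets, a filter on dim genes, an intensity trend, fits of 4 arrays, a replicate block and leaving out each array.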

Additional observations from a re-analysis of the deposited data

How the results depend on the processing

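The differences of GDF15 and MIR3189 kept their direction under every alternative run. With 1 array left out, GDF15 ranged from 3.89 to 3.95 with securinine and from 1.90 to 2.28 with 16F16, and MIR3189 from 2.39 to 2.72 and from 0.98 to 1.31. The count of genes called with securinine was 2823 and ranged from 629 to 2462 with 1 array left out, and that of pathway genes was 40 and ranged from 24 to 41. Over all probe sets 26 pathway genes were called with securinine. With 16F16, 223 genes and 15 pathway genes were called. All probe sets, the fit of the 4 arrays compared and each array left out gave 0 and 0. With the intensity trend the counts were 1808 and 34, and with the filter on dim genes 418 and 18. With replicate number as a replicate block 0 genes and 0 pathway genes were called with 16F16 (2856 and 38 at an unadjusted p under 0.05), and 2066 and 37 with securinine. Leaving out an array, fitting only the 4 arrays compared or adding the block removes residual degrees of freedom. For the other changes the cause was not tested. The fit of the 4 arrays and leaving out 1 array of the group not compared give the same estimates, so they are not separate checks. The 2 arrays per group and the absence of detection calls limit what can be said of dim genes such as GFRAL and of MIR3189 in mock cells.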
